A study of Mus musculus with 9 samples.

Results

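Transcripts of 10 genes of the liver's circadian clock were followed through ethanol feeding with and without extra Mettl3. They are Clock, Per1, Per2, Per3, Cry1, Ciart, Nr1d1, Nr1d2, Dbp and Tef. They were chosen by name to cover the clock's positive arm, its negative arm, the REV-ERB repressors and the PAR bZIP output factors, out of 16266 genes present in both deposited tables, and all 10 were found. RNA sequencing covered 9 liver libraries in 3 groups of 3. All mice were wild-type and received an adeno-associated virus (AAV8) through the tail vein, in which the TBG promoter, active in hepatocytes, drives the insert. The series' design text names an insert-free FLAG virus and a Mettl3-FLAG virus; Mettl3 is the catalytic subunit of the m6A RNA methyltransferase. Pair-fed mice (control virus) ate a control diet for 10 days from 3 weeks after injection and ended with a maltose binge. Ethanol-fed mice (control virus) ate an ethanol diet for the same 10 days and ended with an ethanol binge, and a further ethanol-fed group carried the Mettl3 virus. The sample labels give diet and genotype but name no virus, strain, sex, age or hour of collection, so a shift in clock phase and a change in clock level cannot be told apart. The labels number the libraries without saying that each came from its own animal, so p-values measure the spread between these libraries, which may be technical.

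The mammalian clock is a feedback loop of transcription. CLOCK and its partner BMAL1 bind E-box sequences and switch on the Period and Cryptochrome genes, whose proteins return to the nucleus and repress CLOCK and BMAL1. The same pair drives Nr1d1 and Nr1d2, whose REV-ERB proteins repress Bmal1 and other genes through ROR elements, and Dbp and Tef, whose PAR bZIP proteins bind D-boxes in Per genes and in liver detoxification genes. In mouse liver the transcripts of Dbp and Nr1d1 are known for daily swings of large amplitude, whereas Clock itself varies little over the day.

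The stretches upstream of 5 members are shown because they carry the short sequences through which the loop is wired. They are the parts of the 250 bases before an annotated start that lie outside the gene, from RefSeq on build GRCm38, which is the files' mm10, and they are written 5′ to 3′ along the gene's own strand. Capitals mark matches to the E-box CACGTG, the related motif CACGTT, the D-box TTANNTAA and the REV-ERB core AGGTCA, searched on both strands. The CRE motif TGACGTCA was searched as well and matched no window of the members, beside 1.55% of windows over all promoters.
Tef, chr15:81802423-81802672, plus strand: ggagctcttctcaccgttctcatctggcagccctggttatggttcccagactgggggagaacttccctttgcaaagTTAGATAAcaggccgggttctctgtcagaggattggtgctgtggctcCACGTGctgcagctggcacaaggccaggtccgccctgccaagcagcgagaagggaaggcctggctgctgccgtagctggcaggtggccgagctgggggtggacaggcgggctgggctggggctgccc
Per3, chr4:151044708-151044915, minus strand: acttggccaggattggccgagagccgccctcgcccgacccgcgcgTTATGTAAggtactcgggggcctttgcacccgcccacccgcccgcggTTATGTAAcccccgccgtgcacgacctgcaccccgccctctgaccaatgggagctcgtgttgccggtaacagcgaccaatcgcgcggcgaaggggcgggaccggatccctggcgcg
Ciart, chr3:95882258-95882478, minus strand: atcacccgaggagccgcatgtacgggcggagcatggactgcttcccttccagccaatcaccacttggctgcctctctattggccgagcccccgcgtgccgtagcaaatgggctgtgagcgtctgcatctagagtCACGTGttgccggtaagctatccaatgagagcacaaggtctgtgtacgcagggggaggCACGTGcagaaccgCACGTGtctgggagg
Nr1d1, chr11:98775378-98775627, minus strand: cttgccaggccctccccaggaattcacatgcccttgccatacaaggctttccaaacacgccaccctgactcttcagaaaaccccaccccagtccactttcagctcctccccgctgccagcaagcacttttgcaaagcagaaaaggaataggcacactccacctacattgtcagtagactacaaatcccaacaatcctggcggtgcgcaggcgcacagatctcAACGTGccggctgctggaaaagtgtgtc
Nr1d2, chr14:18239107-18239356, minus strand: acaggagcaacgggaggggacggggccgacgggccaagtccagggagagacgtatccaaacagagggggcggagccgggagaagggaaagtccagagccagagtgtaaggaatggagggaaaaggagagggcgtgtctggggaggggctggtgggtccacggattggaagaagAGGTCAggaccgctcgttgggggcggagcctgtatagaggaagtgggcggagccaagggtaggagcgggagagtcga
Tef, an output factor, holds a D-box and an E-box. Per3 holds 2 copies of TTATGTAA, and Ciart holds 3 E-boxes within 116 bases of its annotated start. Nr1d1 holds 1 CACGTT match, and Nr1d2 holds 1 REV-ERB core. Windows were found for 9 of the 10 members, 13 windows in all, since some genes have several annotated starts. The counts below use whole windows, and some of these lie within the gene. The matching windows of Clock and Per1 do so, as does a further Tef window (81811164 to 81811413), which holds an E-box. Parts of the windows of Dbp, Ciart and Per3 also lie within the gene. An E-box lay in a window of 4 of them (Ciart, Cry1, Per1 and Tef), a D-box in 2 (Per3 and Tef), the REV-ERB core in 3 (Clock, Per1 and Nr1d2) and CACGTT in 2 (Cry1 and Nr1d1), and the window of Dbp matched none. Over all 32851 annotated mouse promoters, windows of the same 250 bases held CACGTG in 6.02%, CACGTT in 3.85%, TTANNTAA in 5.43% and AGGTCA in 14% of cases. Those shares are per window, whereas a member was counted if any of its windows matched, so the measures are unlike. A match is a string of letters, and these data hold no measurement of binding.

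The libraries were deep and alike in size. Read totals recovered from the deposited values ran from 34655840 to 38159563 per library, and the members were covered by 180 to 7801 reads each. Mettl3, the gene carried by the virus, stood at 3.48 ± 0.447 FPKM (SD, n = 3) in pair-fed libraries, 4.69 ± 0.842 in ethanol-fed libraries and 32.2 ± 6.81 in libraries labelled Mettl3 overexpression; FPKM is fragments scaled to gene length and library total. The third group's libraries held 38.5, 25.0 and 33.3 FPKM, each above all 6 others. All groups carried the 8 hepatocyte markers, whose summed level was 55049 to 61872 FPKM in pair-fed, 51269 to 63664 in ethanol-fed and 48197 to 56800 in Mettl3 libraries. With ethanol, 2 of 8 hepatocyte markers were called higher and 0 lower, against 7 of 8 Kupffer cell markers, 6 of 8 endothelial markers and 3 of 8 stellate cell markers called lower, with 1 endothelial marker higher. Over all genes tested, 10.0% were called higher and 26.0% lower with ethanol. In Mettl3 against pair-fed libraries 13.9% of all genes were called higher and 34.9% lower. The Kupffer sum was 224 to 256 FPKM in pair-fed and 118 to 177 in ethanol-fed libraries. The neutrophil sum was 7.46 to 11.6 FPKM in pair-fed, 9.32 to 74.0 in ethanol-fed and 49.0 to 105 in Mettl3 libraries, with 1 of 4 tested markers called higher in ethanol-fed and 4 of 5 in Mettl3 libraries against pair-fed. The sum of 7 lymphocyte markers, each too low to test, was 4.16 to 4.96 FPKM in pair-fed, 1.15 to 1.93 in ethanol-fed and 1.10 to 2.19 in Mettl3 libraries. Cholangiocyte markers summed to 28.3 to 41.2, 24.2 to 38.8 and 24.9 to 46.9 FPKM, and no marker of these types was at 0. The part of these cell types in the clock values was not tested. In whole liver, fewer cells of a type and less RNA per cell cannot be told apart.

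With ethanol, the output factor Dbp, both REV-ERB genes and Tef fell, and Per2 rose. A gene was called changed when limma's test on log2(FPKM + 1), fitted to all genes, gave a Benjamini-Hochberg adjusted p below 0.05. Of the 10 members, 1 was higher, 4 were lower and 5 were not called. Gene positions below are RefSeq's on GRCm38. Among all 10064 genes tested, 10.0% were called higher and 26.0% lower. The share of all genes whose groups did not overlap was not computed for comparisons with pair-fed libraries. Separations given below for single genes therefore have no background beside them. The members' median log2 fold change was -0.32, against -0.14 over all genes. Scaling the libraries by median ratios moved the median of all genes from -0.14 to 0.01 and changed the split over all genes from 1009 higher and 2616 lower to 1773 higher and 1680 lower. Under it the members' median was -0.17, with the same 1 member higher and 4 lower.

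**Figure D1:**
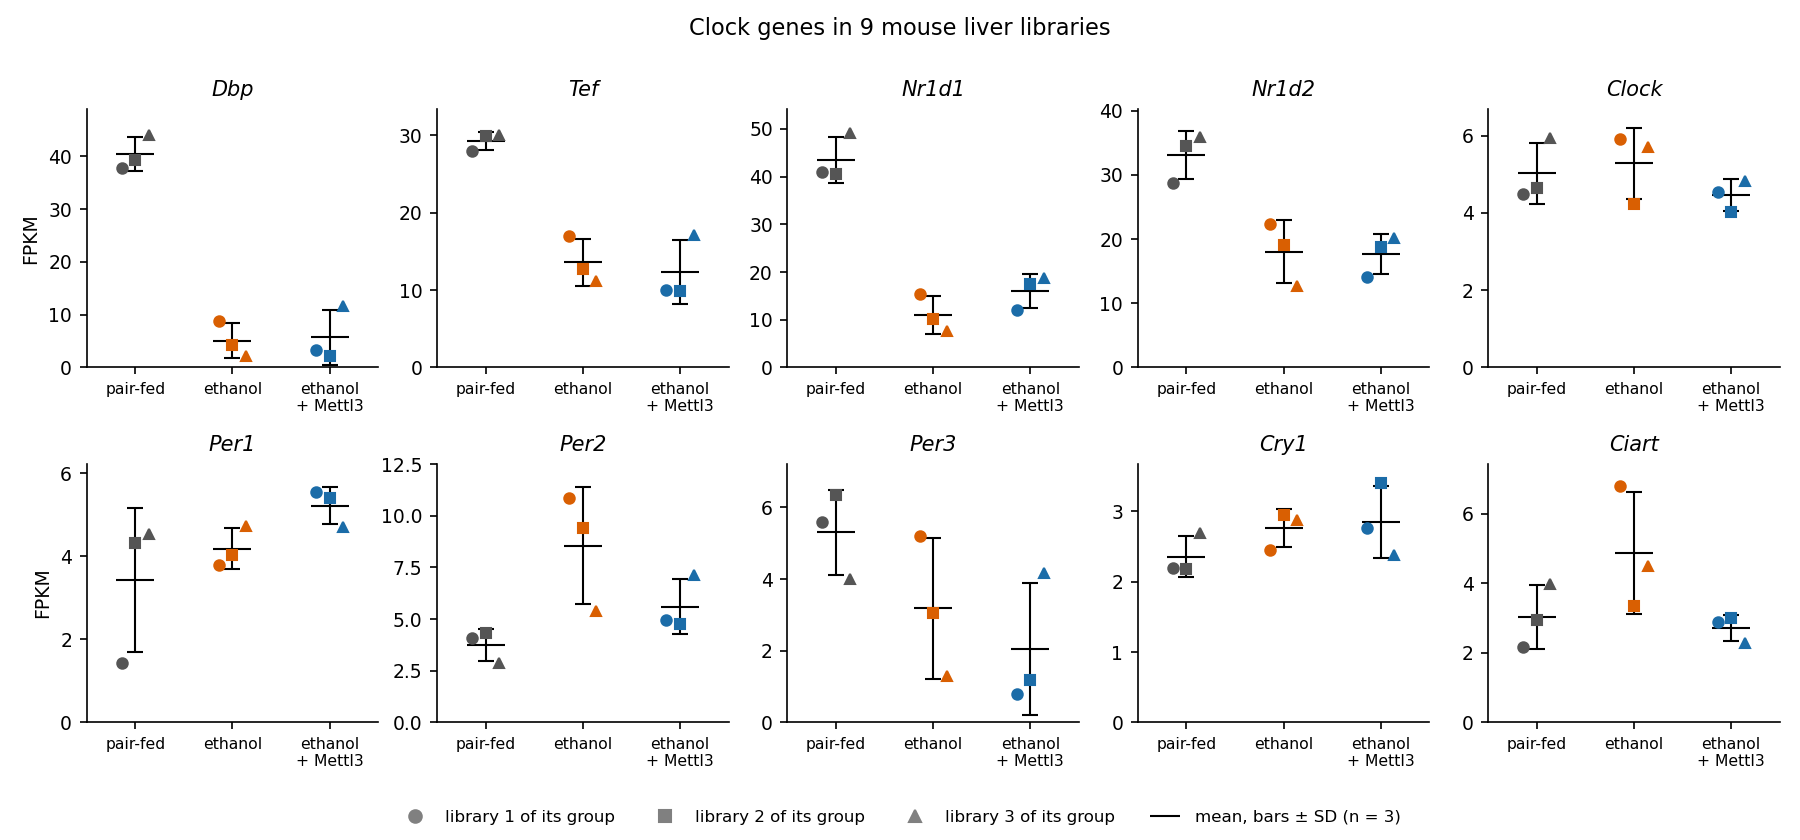
FPKM (vertical axis, starting at 0) of the 10 clock genes in pair-fed, ethanol-fed and ethanol-fed Mettl3 libraries. Points are libraries, and lines and bars are the mean ± SD of 3. Dbp, Tef, Nr1d1 and Nr1d2 lay lower in all 6 ethanol-fed libraries than in any pair-fed library, and Clock overlapped among the groups. The share of all genes lying apart in this way was not computed.

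Dbp (chromosome 7, 45705100 to 45710203) encodes the D-site albumin promoter binding protein, an activator. It stood at 37.8, 39.4 and 44.1 FPKM in pair-fed libraries and at 8.74, 4.27 and 2.19 in ethanol-fed libraries. The groups lay far apart, and the ethanol-fed libraries spanned a wide range among themselves. The mean fell to 12.5% of the pair-fed mean, with a log2 fold change of -2.92 (SE 0.35, limma adjusted p = 0.0020). Tef (chromosome 15, 81802673 to 81826863) encodes the related thyrotroph embryonic factor. Its levels were 27.9, 29.9 and 29.99 FPKM in pair-fed libraries and 17.0, 12.8 and 11.1 in ethanol-fed libraries. The groups did not overlap, and the log2 fold change was -1.07 (SE 0.15, limma adjusted p = 0.0029). Dbp and Tef therefore changed by unequal amounts in the same libraries. The ratio of Dbp to Tef was 1.35, 1.32 and 1.47 in pair-fed libraries and 0.515, 0.335 and 0.197 in ethanol-fed ones.

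Nr1d1 and Nr1d2 encode REV-ERBα and REV-ERBβ, heme-binding nuclear receptors that repress transcription. Nr1d1 (chromosome 11, 98767932 to 98775377) measured 40.8, 40.5 and 49.0 FPKM in pair-fed libraries and 15.5, 10.1 and 7.57 in ethanol-fed libraries. Every ethanol-fed library lay below every pair-fed one, with a log2 fold change of -1.93 (SE 0.23, limma adjusted p = 0.0018). Nr1d1 overlaps Thra on the opposite strand over 1075 bases (chromosome 11, 98767932 to 98769006). The strand setting of the authors' counting is not given in the sources used here, so reads of the overlap cannot be told apart; Thra itself stood at 0.706 to 2.10 FPKM. Nr1d2 (chromosome 14, 18204056 to 18239106) measured 28.8, 34.5 and 35.9 FPKM in pair-fed libraries and 22.4, 19.1 and 12.7 in ethanol-fed libraries. The groups did not overlap, although the fall was smaller, at -0.87 on the log2 scale (SE 0.20, limma adjusted p = 0.0155). That call was lost without pair-fed library 2 (limma adjusted p = 0.0616) or pair-fed library 3 (0.0655). The ratio of Nr1d1 to Nr1d2 was 1.17 to 1.42 in pair-fed libraries and 0.528 to 0.690 in ethanol-fed libraries. Nr1d1 thus had the higher FPKM in every pair-fed library and Nr1d2 in every ethanol-fed library.

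Among the negative arm, Per2 moved up while the other Period genes did not pass the test. PER2 is a scaffold of the repressor complex and also an early target of hormone and temperature signals. Per2 (chromosome 1, 91415977 to 91459351) measured 4.06, 4.31 and 2.86 FPKM in pair-fed libraries and 10.9, 9.38 and 5.39 in ethanol-fed libraries. The lowest ethanol-fed library was above the highest pair-fed one, and the log2 fold change was 0.98 (SE 0.24, limma adjusted p = 0.0196). The call was lost without pair-fed library 2 (limma adjusted p = 0.0503), pair-fed library 3 (0.0765) or ethanol-fed library 2 (0.0612). Per3 (chromosome 4, 150997018 to 151044707), a Period gene with a strong daily swing, measured 5.59, 6.33 and 4.00 FPKM in pair-fed libraries and 5.21, 3.04 and 1.30 in ethanol-fed libraries. The groups overlapped through ethanol-fed library 1, and the log2 difference was -0.69 (SE 0.34, limma adjusted p = 0.148). Without that library it was -1.03 (limma adjusted p = 0.0199), and without ethanol-fed library 3 it was -0.31 (limma adjusted p = 0.349). The ratio of Per3 to Per2, taken within each library, was 1.38, 1.47 and 1.40 in pair-fed libraries and 0.479, 0.324 and 0.240 in ethanol-fed ones.

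Per1 (chromosome 11, 69095108 to 69109965), an E-box and CREB target, measured 1.44, 4.31 and 4.54 FPKM in pair-fed libraries and 3.78, 4.03 and 4.74 in ethanol-fed libraries. Pair-fed library 1 stood alone at the bottom, and the other 5 libraries were within 1 FPKM of each other. The log2 difference of 0.31 (SE 0.30, limma adjusted p = 0.440) became -0.07 without pair-fed library 1. Cry1 (chromosome 10, 85131700 to 85185054), the cryptochrome that represses CLOCK and BMAL1 late in the cycle, measured 2.20, 2.18 and 2.70 FPKM in pair-fed and 2.45, 2.96 and 2.88 in ethanol-fed libraries. These ranges overlapped, with a log2 difference of 0.16 (SE 0.11, limma adjusted p = 0.266). Ciart (chromosome 3, 95878500 to 95882257), also called Chrono, encodes a repressor that binds BMAL1. It measured 2.16, 2.94 and 3.98 FPKM in pair-fed and 6.79, 3.34 and 4.49 in ethanol-fed libraries, with overlap and a log2 difference of 0.53 (SE 0.24, limma adjusted p = 0.127), or 0.30 without ethanol-fed library 1. The authors' deposited table, from a count test, gives Ciart a log2 fold change of 0.85 with q = 0.0177. Over the 10 members, the authors' deposited table has 6 with q below 0.05, of which 2 are higher (Per2 and Ciart) and 4 lower. The share of all genes below that q was not computed here, so this count has no background beside it.

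Clock (chromosome 5, 76209868 to 76305603), the only positive-arm member here, is the DNA-binding partner of BMAL1. Its levels were 4.50, 4.63 and 5.93 FPKM in pair-fed libraries and 5.92, 4.23 and 5.71 in ethanol-fed libraries. The groups overlapped over most of their range, and the log2 difference was 0.06 (SE 0.15, limma adjusted p = 0.775). With this error the fit cannot tell a small rise from a small fall.

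**Figure D2:**
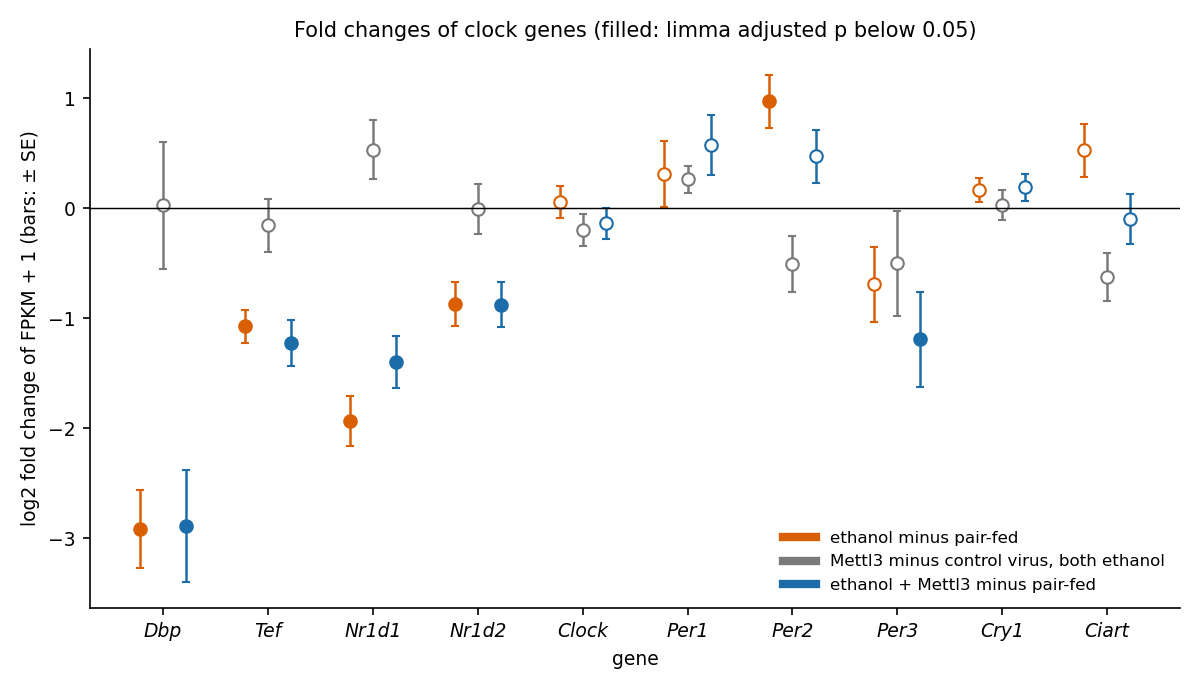
Log2 fold change of FPKM + 1 (vertical axis, bars ± SE) of each clock gene in the 3 comparisons, with filled points for limma adjusted p below 0.05. Dbp, Tef, Nr1d1 and Nr1d2 have filled points in both comparisons with pair-fed libraries, and no gene has a filled point for Mettl3 against control virus.

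Between ethanol-fed mice with the Mettl3 virus and with the control virus, limma called 0 of the 10 members, and limma-voom on recovered reads also called 0. By unadjusted p below 0.05 there was 1 (Ciart). Over all 9706 genes tested, 0.0103% were called higher, which is Mettl3 alone (log2 fold change 2.54, SE 0.19, limma adjusted p = 0.0257), and 0% were called lower; 723 genes had an unadjusted p below 0.05. The call of Mettl3 itself was lost without ethanol-fed library 2 (limma adjusted p = 0.201) or 3 (0.137), or without Mettl3 library 1 (0.160) or 3 (0.107), with log2 fold changes of 2.40 to 2.56. So a missed call in this comparison shows little about the size of a difference. In the authors' deposited table the lowest q among the members was 0.371, for Ciart, and 0 members were below 0.05. The share of all genes below 0.05 by the authors' test was not computed here.

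Ciart measured 2.87, 3.00 and 2.29 FPKM in Mettl3 libraries, below every ethanol-fed control library (6.79, 3.34 and 4.49). It was the only member whose groups did not overlap, with a log2 difference of -0.62 (SE 0.22, limma adjusted p = 0.641), or -0.40 without ethanol-fed library 1. Over all genes tested, 6.62% had groups apart in this direction and 6.17% in the other, so 1 member in 10 is near that background. Nr1d1 measured 12.1, 17.4 and 18.8 FPKM in Mettl3 libraries against 15.5, 10.1 and 7.57 in ethanol-fed controls. The ranges overlapped, and the log2 difference was 0.54 (SE 0.27, limma adjusted p = 0.641), moving to 0.32 without ethanol-fed library 3 and 0.79 without ethanol-fed library 1. Per2 measured 4.93, 4.76 and 7.13 FPKM with the Mettl3 virus against 10.9, 9.38 and 5.39 without it, a log2 difference of -0.50 (SE 0.25, limma adjusted p = 0.641). Its ranges overlapped through ethanol-fed library 3, and the difference was -0.77 without that library and -0.32 without ethanol-fed library 1.

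The PAR bZIP genes differed more among libraries of a group than between the ethanol-fed groups. Dbp measured 3.23, 2.25 and 11.6 FPKM in Mettl3 libraries, with a log2 difference of 0.03 (SE 0.58, limma adjusted p = 0.991) from ethanol-fed controls. Its direction depended on the library: the difference was -0.36 without ethanol-fed library 3 and -0.56 without Mettl3 library 3. Tef measured 9.98, 9.88 and 17.2 FPKM, with a log2 difference of -0.15 (SE 0.24). Nr1d2 measured 14.1, 18.8 and 20.1 FPKM, a log2 difference of -0.01 (SE 0.23). These ranges lay across those of the ethanol-fed controls.

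Per3 measured 0.792, 1.19 and 4.17 FPKM in Mettl3 libraries, a log2 difference of -0.50 (SE 0.48) from ethanol-fed controls. It was -0.16 without ethanol-fed library 1 and -0.96 without Mettl3 library 3. Mettl3 library 3 stood well above the other two. Per1 measured 5.54, 5.40 and 4.70 FPKM (log2 difference 0.26, SE 0.12), Cry1 2.77, 3.40 and 2.39 (0.03, SE 0.13) and Clock 4.53, 4.02 and 4.83 (-0.20, SE 0.14). All of these overlapped the ethanol-fed controls, and limma adjusted p over the 10 members ran from 0.641 upward.

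Against pair-fed libraries, the ethanol-fed Mettl3 livers had 5 members lower and 0 higher, in a fit of all 9 libraries. Over 10229 genes, 13.9% were called higher and 34.9% lower, and the members' median log2 fold change was -0.51 against -0.18 over all genes. This comparison shares its pair-fed libraries with the first, so its values are given only side by side with it. Dbp was at -2.89 (SE 0.51, limma adjusted p = 0.0026), Nr1d1 at -1.40 (SE 0.24), Tef at -1.22 (SE 0.21) and Nr1d2 at -0.88 (SE 0.21). Per3 was the fifth, at -1.19 (SE 0.43, limma adjusted p = 0.0467), although its groups overlapped at 4.17 FPKM. That call was lost without pair-fed library 1, 2 or 3 or Mettl3 library 1 or 2, with limma adjusted p from 0.0691 to 0.160. Per2 was at 0.47 (SE 0.24, limma adjusted p = 0.129) and Per1 at 0.58 (SE 0.27, limma adjusted p = 0.107). Per1 was at 0.19 without pair-fed library 1 (limma adjusted p = 0.235), and Per2 was at 0.31 without Mettl3 library 3 (limma adjusted p = 0.311). Every Mettl3 library was above every pair-fed library for these uncalled Period genes, with Per1 at 4.70 against 4.54 FPKM at the closest. How many of all genes lay apart in this comparison was not computed, so this separation has no background. Cry1 (0.19), Clock (-0.14) and Ciart (-0.09) were not called. Median-ratio scaling moved the median of all genes from -0.18 to 0.03 and the split from 1424 higher and 3572 lower to 2587 higher and 2212 lower. Under it Per1 (0.79, limma adjusted p = 0.0495) and Per2 (0.69, limma adjusted p = 0.0191) were called higher and Per3 (-0.999, limma adjusted p = 0.0699) was not called.

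The order of the members by level was different in the 3 groups. In pair-fed libraries Nr1d1 (mean 43.4 FPKM) and Dbp (40.4) led, with overlapping ranges, followed by Nr1d2 (33.1) and Tef (29.3), also overlapping. Per3 came next at 5.31 FPKM, and the ranges of Tef and Per3 were far apart. Clock (5.02), Per2 (3.74), Per1 (3.43), Ciart (3.03) and Cry1 (2.36) followed, and of these neighbours only Clock and Per2 did not overlap. In ethanol-fed libraries Nr1d2 led at 18.1 FPKM, then Tef at 13.6, Nr1d1 at 11.03 and Per2 at 8.55, and Dbp was sixth at 5.07, level with Clock at 5.29. Each neighbouring pair in that order overlapped. In Mettl3 libraries the order was Nr1d2 (17.7), Nr1d1 (16.1), Tef (12.3), Dbp (5.70), Per2 (5.61), Per1 (5.21), Clock (4.46), Cry1 (2.85), Ciart (2.72) and Per3 (2.05), with a gap only between Clock and Cry1. FPKM is scaled by the gene length used in the authors' counting, which was not checked here. In pair-fed library 1, for example, Rora had 3071 reads at 1.58 FPKM and Per2 had 930 reads at 4.06 FPKM. The order between genes therefore depends on that length.

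**Figure D3:**
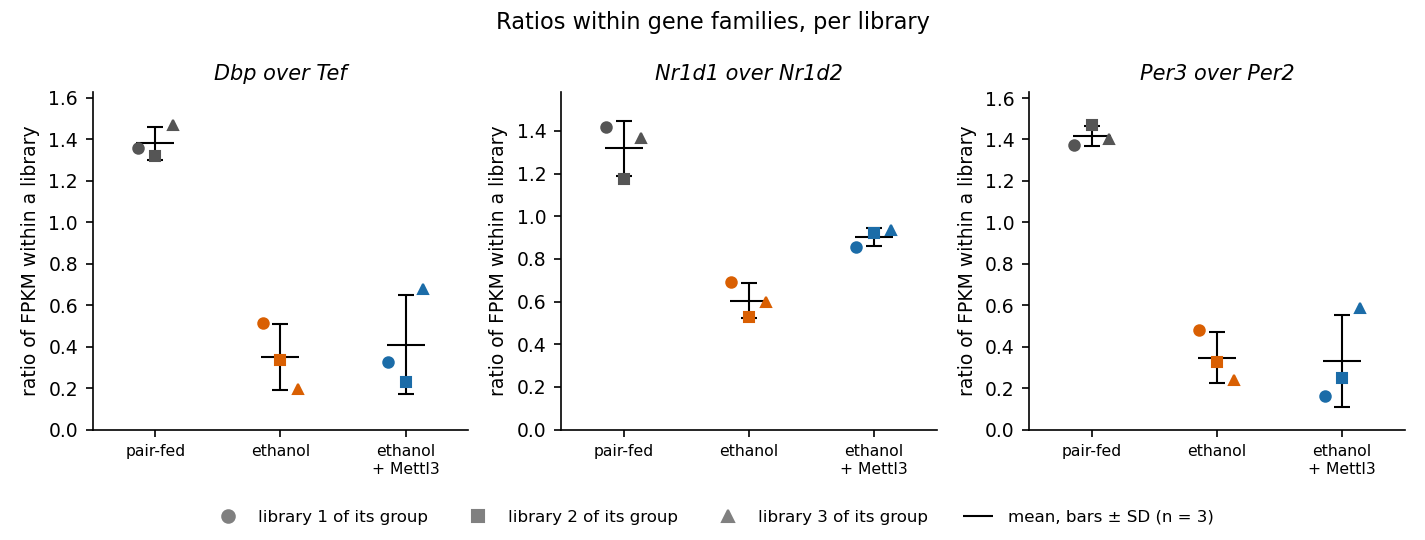
Ratio of FPKM of related genes within each library (vertical axes, starting at 0), with the mean ± SD of 3. Nr1d1 over Nr1d2 lay in separate ranges in the 3 groups, and Dbp over Tef and Per3 over Per2 separated only pair-fed from ethanol-fed libraries.

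Ratios within gene families compare transcripts of the same library. Nr1d1 over Nr1d2 was 1.42, 1.17 and 1.37 in pair-fed libraries, 0.690, 0.528 and 0.596 in ethanol-fed controls and 0.854, 0.923 and 0.935 in Mettl3 libraries. The 3 groups did not overlap, with the Mettl3 libraries between the others. The ratios were picked out after their values were seen and are descriptions without a test. Dbp over Tef in Mettl3 libraries was 0.324, 0.227 and 0.678, and Per3 over Per2 was 0.161, 0.251 and 0.584. Both of these lay across the range of the ethanol-fed controls and below all pair-fed libraries. Of 5 ratios computed, the other 2 did not separate pair-fed from ethanol-fed controls. Per2 over Per1 was 0.628 to 2.82 in pair-fed and 1.14 to 2.88 in ethanol-fed libraries, and Per3 over Per1 was 0.881 to 3.88 and 0.273 to 1.38.

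**Figure D4:**
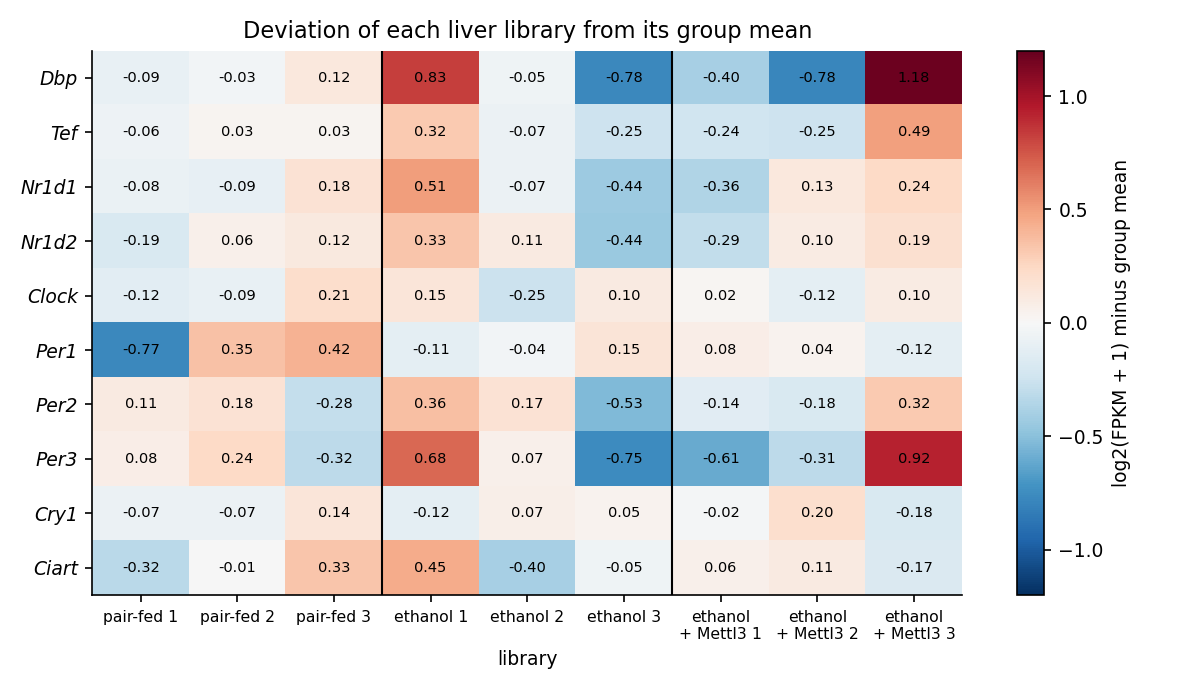
Deviation of each library from its group mean on the log2(FPKM + 1) scale (colour and printed value) for each clock gene (rows) and library (columns). Pair-fed library 3 is above its group mean for 8 genes, ethanol-fed library 1 for 8 and Mettl3 library 3 for 7. Dbp and Per3 have the widest spread under ethanol.

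In each group 1 library was the highest for many clock genes, although the size of the spread differed between groups. The share of all genes highest in those libraries was not computed here. Members are also not independent of each other, with a Pearson's r of 0.98 between the deviations of Dbp and Tef. Pair-fed library 3 was the highest of its group for 8 of 10 members, and pair-fed library 1 was the lowest for 6. Ethanol-fed library 1 was the highest of its group for 8 of 10 members and Mettl3 library 3 for 7, while ethanol-fed library 3 was the lowest for 6. Dbp deviated from its group mean by 0.83 in ethanol-fed library 1 and by 1.18 in Mettl3 library 3 on the log2 scale, and Per3 by 0.68 and 0.92. In ethanol-fed library 1 Cry1 and Per1 were the lowest of their group, and in Mettl3 library 3 Cry1, Per1 and Ciart were. The SD of Dbp on the log2 scale was 0.11 in pair-fed, 0.81 in ethanol-fed and 1.04 in Mettl3 libraries. Of the 10229 genes tested, 57.8%, 98.6% and 99.5% had a smaller SD in those groups. Per3 was similar under ethanol, with 97.99% of genes less variable in ethanol-fed and 98.9% in Mettl3 libraries. Per1 was the reverse, with an SD of 0.67 in pair-fed libraries (99.6% of genes smaller) and of 0.14 and 0.11 under ethanol.

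Other transcripts moved with ethanol-fed library 1 and Mettl3 library 3. Over all genes tested, deviations from the group means in these libraries had a Pearson's r of 0.58. For ethanol-fed library 1 and Mettl3 library 2 it was -0.51. The shared shift was therefore not particular to clock genes. The neutrophil gene S100a8 was at 2.94 FPKM in ethanol-fed library 1 against 21.2 and 23.0 in the other two, and at 14.04 in Mettl3 library 3 against 24.4 and 27.6. The acute phase gene Lcn2 was lowest in the same libraries, at 506 and 882 FPKM against 1925 to 3681 in the other 4 ethanol-fed libraries. Mt1, a metallothionein, was lowest there too, at 470 and 936 FPKM against 1207 to 1888. Their part in the clock values was not tested. With ethanol-fed library 1 and Mettl3 library 3 both left out, Dbp stood at -0.15 between the ethanol groups and at -3.48 against pair-fed. The count of members called was 0 in the first and 5, all lower, in the second. Over all genes, 0 of 9294 were called in the first. In the second 6229 of 10094 were called, 4483 of them lower, so the members' count is near that background.

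**Figure D5:**
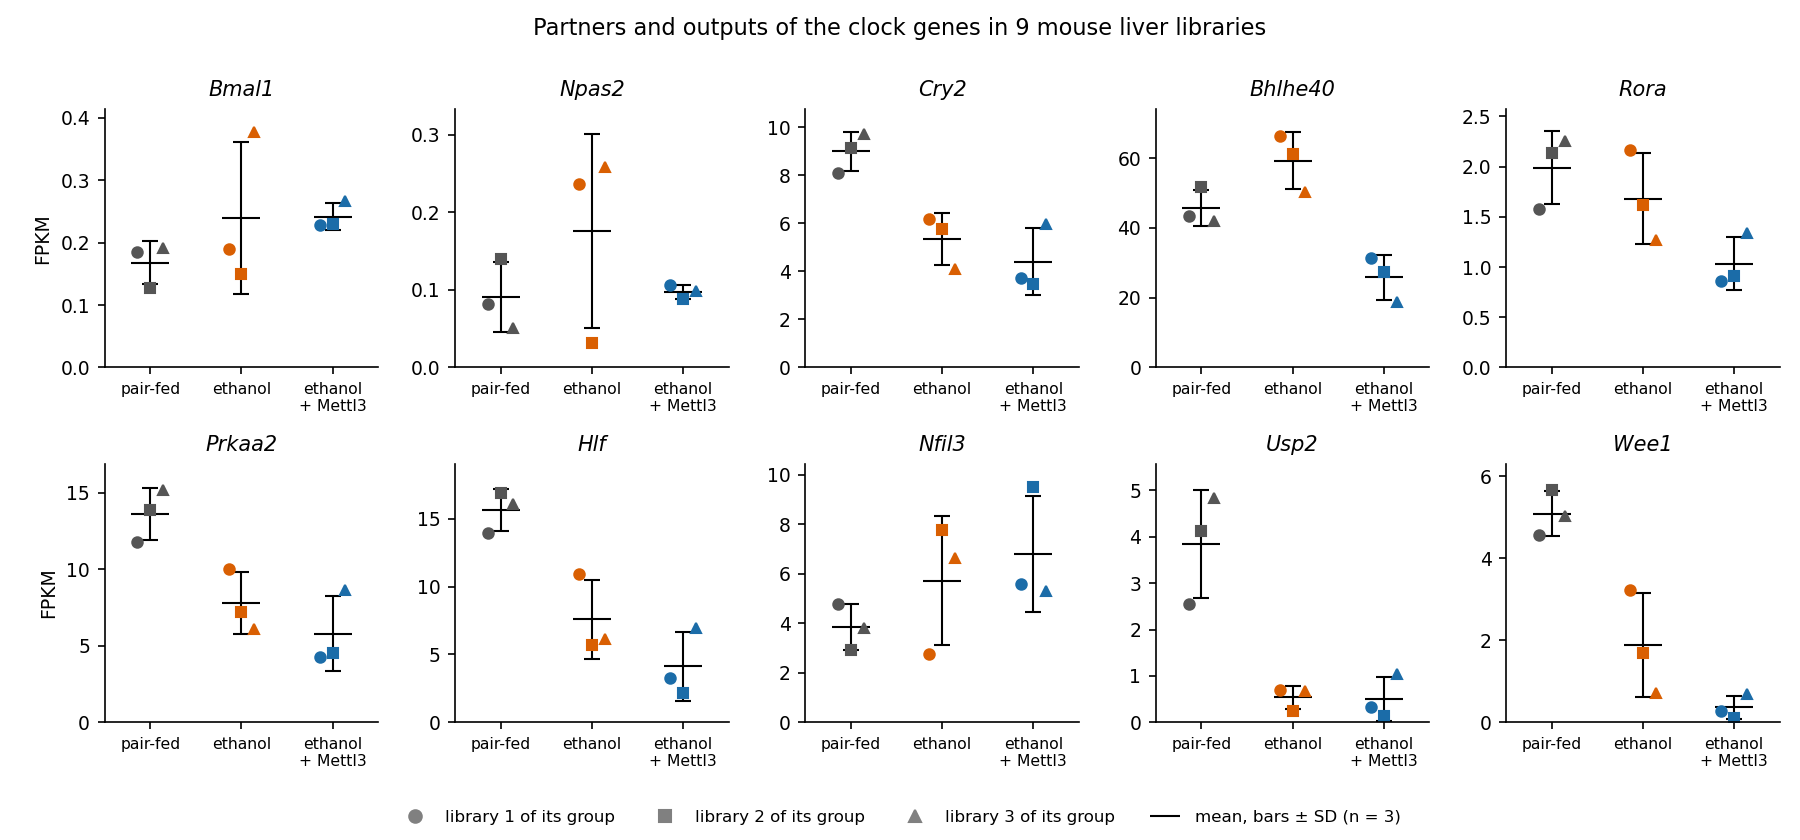
FPKM (vertical axes, starting at 0) of partner and output genes of the clock in the 3 groups, with the mean ± SD of 3. Cry2, Prkaa2, Hlf, Usp2 and Wee1 lay lower in all 6 ethanol-fed libraries than in any pair-fed library, and Bmal1 and Npas2 lay below 0.4 FPKM throughout. Wee1 was picked after its values were seen, and the share of all genes lying apart in this way was not computed.

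The partners of these genes were read from lists of the remaining clock genes. In the positive arm, Bmal1, the partner of CLOCK, and Npas2, a relative of Clock, lay at 0.128 to 0.378 and 0.0315 to 0.259 FPKM. Both were under the level of 1 FPKM needed for a test. Bmal1 was covered by 91 to 271 reads per library, beside 180 to 522 for Ciart, and its FPKM depends on the gene length used. In the negative arm 2 of 4 further genes could be tested. Cry2, the second cryptochrome, measured 8.10, 9.13 and 9.73 FPKM in pair-fed and 6.18, 5.76 and 4.12 in ethanol-fed libraries. It fell by 0.66 on the log2 scale (SE 0.15, limma adjusted p = 0.0135), a call lost without pair-fed library 2 (limma adjusted p = 0.056) or 3 (0.0617). In Mettl3 libraries it measured 3.73, 3.47 and 5.99 FPKM and was called lower than pair-fed, at -0.91. Bhlhe40, encoding the E-box repressor DEC1, measured 43.6, 51.8 and 41.9 FPKM in pair-fed, 66.4, 61.3 and 50.3 in ethanol-fed and 31.4, 27.4 and 18.8 in Mettl3 libraries. The difference with ethanol was not called (0.36, SE 0.13, limma adjusted p = 0.0695), except without ethanol-fed library 3 (0.48, limma adjusted p = 0.0374). Mettl3 libraries lay below both other groups, at -1.19 against ethanol-fed controls (SE 0.21, limma adjusted p = 0.453) and -0.82 against pair-fed (SE 0.19, limma adjusted p = 0.0070).

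Rora, an activator that competes with REV-ERB at its binding elements, was not called with ethanol, at -0.16 on the log2 scale. Rora measured 1.58, 2.13 and 2.26 FPKM in pair-fed and 0.857, 0.906 and 1.34 in Mettl3 libraries, a log2 fold change of -0.56 (SE 0.15, limma adjusted p = 0.0155). That call was lost without pair-fed library 2 or 3 or Mettl3 library 1 or 2, with limma adjusted p from 0.0537 to 0.0615. Hlf, the third PAR bZIP activator beside Dbp and Tef, measured 13.9, 16.9 and 16.1 FPKM in pair-fed, 10.9, 5.70 and 6.10 in ethanol-fed and 3.24, 2.14 and 6.96 in Mettl3 libraries. It fell by 1.003 with ethanol (SE 0.22, limma adjusted p = 0.0128), a call lost without pair-fed library 2 or 3 (limma adjusted p up to 0.0554), and was at -1.81 in Mettl3 libraries against pair-fed. All 3 PAR bZIP activators were thus called lower with ethanol, Hlf less firmly, where 26.0% of all genes were called lower. Nfil3, the repressor at D-boxes, measured 4.80, 2.93 and 3.83 FPKM in pair-fed and 2.77, 7.77 and 6.64 in ethanol-fed libraries, with overlap and a log2 difference of 0.40 (SE 0.31, limma adjusted p = 0.344).

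Of 13 tested genes for kinases, ligases, phosphatases and a deubiquitinase that act on the stability of clock proteins, 2 were called lower with ethanol and 0 higher. Over all genes 26.0% were lower and 10.0% higher, so neither share of the list is above that background. Usp2, a deubiquitinase of the clock and an E-box output, measured 2.56, 4.14 and 4.84 FPKM in pair-fed and 0.694, 0.256 and 0.683 in ethanol-fed libraries, a log2 fold change of -1.63 (SE 0.21, limma adjusted p = 0.0022). In Mettl3 libraries it measured 0.339, 0.144 and 1.04 FPKM. Prkaa2, the AMPK subunit that phosphorylates CRY1, fell by 0.75 (SE 0.18, limma adjusted p = 0.0165), a call lost without pair-fed library 2 or 3 or ethanol-fed library 2. Without pair-fed library 2 or 3 none of this list was called, and 1 was called without pair-fed library 1 or ethanol-fed library 2. Of 13 corepressor and coactivator genes, 3 were called lower and 0 higher, also near the share over all genes. Sin3a, a scaffold of histone deacetylase complexes, was at -0.73 (SE 0.10, limma adjusted p = 0.0031). The count was 1 without any one of pair-fed libraries 1, 2 and 3 and ethanol-fed libraries 2 and 3. It was also 1 under median-ratio scaling, and 7 without ethanol-fed library 1. Over all genes, the 3625 calls fell to between 1538 and 2591 without any one of the former libraries. They rose to 4743 without ethanol-fed library 1.

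Genes listed as E-box outputs in liver went in both directions. Of 18 tested, 3 were higher and 8 lower with ethanol, with a median of -0.40 against -0.14 over all genes, of which 10.0% were higher and 26.0% lower. The higher ones were Klf10, a clock-driven repressor of glucose production, at 1.58 (SE 0.29, limma adjusted p = 0.0074), Lpin1 at 1.17 (SE 0.29) and Noct at 0.87 (SE 0.21); the last pair are named after their values were seen. Lpin1 lost its call without pair-fed library 1 or 3 or ethanol-fed library 3, and Noct without pair-fed library 1 or 3. Among the lower ones, Nr0b2, the bile acid-induced repressor SHP, fell by 2.08 (SE 0.22, limma adjusted p = 0.0013), Upp2, a uridine phosphorylase, fell by 2.38 (SE 0.38), and Pdk4, the kinase that holds back pyruvate oxidation, fell by 1.26 (SE 0.16). The count of 11 called dropped to 7 without pair-fed library 1 or ethanol-fed library 2 or 3. It was 6 without pair-fed library 2 and 4 without pair-fed library 3. Leaving out any one of these libraries also lowered the calls over all genes, from 3625 to between 1538 and 2591. Wee1, a cell cycle kinase on the same list, is named after its values were seen: it measured 4.58, 5.67 and 5.02 FPKM in pair-fed, 3.23, 1.69 and 0.723 in ethanol-fed and 0.289, 0.118 and 0.682 in Mettl3 libraries. It fell by 1.17 with ethanol (SE 0.29, limma adjusted p = 0.0205), a call lost without pair-fed library 2 or 3 or ethanol-fed library 2, and was at -2.18 in Mettl3 libraries against pair-fed (SE 0.29). Rgs16, a regulator of G protein signalling, measured 86.1, 97.2 and 61.4 FPKM in pair-fed, 227, 85.1 and 99.7 in ethanol-fed and 4.76, 11.1 and 8.08 in Mettl3 libraries. The ethanol-fed groups were far apart, at -3.87 on the log2 scale (SE 0.41), with limma adjusted p = 0.151 and a range of 0.0156 to 0.517 over the alternatives, called only in the fit of all 9 libraries. Klf10 measured 10.1, 17.7 and 7.92 FPKM in pair-fed, 47.4, 34.8 and 27.8 in ethanol-fed and 8.28, 9.70 and 4.46 in Mettl3 libraries, at -2.17 between the ethanol-fed groups (SE 0.29, limma adjusted p = 0.349).

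Of 15 D-box outputs tested, 1 was higher and 6 were lower with ethanol, beside 10.0% higher and 26.0% lower over all genes. The list's median was -0.53, against -0.14 over all genes. Nr1i3, encoding the xenobiotic receptor CAR, fell by 1.84 (SE 0.21, limma adjusted p = 0.0016), Ppara, the fatty acid receptor, by 1.78 (SE 0.21) and the carboxylesterase Ces2a by 0.87 (SE 0.09). Cyp2b10, a cytochrome P450 and CAR target, went the other way, from 0.355, 0.389 and 0.401 FPKM to 15.2, 8.29 and 23.2 (3.48, SE 0.31, limma adjusted p = 0.00084). Without ethanol-fed library 1 the list had 1 higher and 10 lower. Over all 9879 genes tested without that library, 1098 were higher and 3645 lower, so calls rose over all genes as well. Of 11 tested genes listed as REV-ERB targets, members aside, 4 were higher and 3 lower, beside the same 10.0% and 26.0% over all genes, with a median of 0.20. The share lower is near the background. Bhmt, of methionine metabolism, rose by 2.11 (SE 0.19), whereas the endothelial lipase gene Lipg fell by 1.82 (SE 0.18) and the cell cycle repressor E2f8 by 1.66 (SE 0.16). None of these lists had a member called between the ethanol-fed groups.

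Genes whose levels ran most like Dbp were sought among 5352 other genes with a mean of at least 5 FPKM, by Pearson's r of log2(FPKM + 1) over the 9 libraries, as a description. They were Pex6 (r = 0.996), Epb41l4b (0.996), Rab32 (0.995), Ctdsp1 (0.995) and Higd2a (0.993). Pex6, of peroxisome import, measured 20.3, 20.5 and 21.9 FPKM in pair-fed, 13.0, 11.1 and 9.63 in ethanol-fed and 9.79, 9.62 and 13.8 in Mettl3 libraries. It therefore repeated the pattern of Dbp, including the higher ethanol-fed library 1 and Mettl3 library 3, over a smaller range. For Clock the genes were Hmox2 (r = 0.943), Shld2 (0.930), Cth (0.922), Gstp1 (0.918) and Tmem243 (0.911). Hmox2, the constitutive heme oxygenase, measured 22.9, 21.8 and 25.0 FPKM in pair-fed, 26.6, 19.95 and 26.5 in ethanol-fed and 22.3, 20.2 and 22.3 in Mettl3 libraries. The libraries share depth and group, which enter these values.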

How the data were processed

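Gene expression was measured by RNA sequencing of total RNA (TRIzol, VAHTS Universal V6 kit, per the labels' protocols) in 9 mouse liver libraries. Per the submitters' processing notes, fastp, HISAT2, HTSeq and build mm10 were used; versions and strand setting are not given in the sources used here. The authors deposited 2 tables of 6 libraries, which share the ethanol-fed control libraries, with FPKM per library. Per the file headers, they also hold group means as a normalized signal, a fold change (ratio), a log2 fold change, and p-values and q-values of the authors' own comparison. The FPKM steps gave whole reads for 100% of values below 1000 reads (tolerance 0.05), from which depth was taken.

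The tables were joined on gene symbol. limma 3.58.1 in R 4.3.3 (trend and robust options) tested log2(FPKM + 1) for genes with at least 1 FPKM in at least 3 fitted libraries, with Benjamini-Hochberg adjustment over all genes at 0.05. Ethanol against pair-fed and Mettl3 against control virus each used the 6 libraries they compare; Mettl3 against pair-fed used all 9. Fold changes on the log2(FPKM + 1) scale understate changes of low genes. The fitting was tested on simulated data. Alternatives were a pseudocount of 0.1, no filter, median-ratio scaling, a replicate block, another set of libraries, limma-voom on recovered reads, leaving out each library, and, chosen after seeing the data, leaving out ethanol-fed library 1 and Mettl3 library 3 together. The members and gene lists were chosen with earlier results of these data known. Besides the members, up to 4 genes of each list with the smallest p in either of the first 2 comparisons could be named, called ones first, and the 5 genes most like Dbp and Clock; Wee1, Lpin1, Noct, Lcn2, Mt1, S100a8 and Thra are named beside results they touch.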

Additional observations from a re-analysis of the deposited data

How the results depend on the processing

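Of 12 alternatives to the ethanol comparison, 6 left out a library; the count of 5 members called was 3 without pair-fed library 2 or 3 and between 3 and 6 over all left-out libraries. Over all genes the 3625 calls ranged from 1538 to 4743 over left-out libraries, the lowest without pair-fed library 2 and the highest without ethanol-fed library 1, and from 3342 to 5678 around 4996 in the comparison of Mettl3 with pair-fed libraries. Libraries of the same number were not steadily alike. Their correlations of deviations from group means were -0.19, -0.11 and 0.11 between pair-fed and ethanol-fed. They were -0.35, 0.39 and -0.41 between the ethanol-fed groups, and 0.048, -0.050 and 0.094 between pair-fed and Mettl3 libraries. Values from 3 libraries a group cannot show whether the numbers pair the libraries. With a replicate block, 5, 0 and 4 members were called in the 3 comparisons, Per3 being lost in the last (limma adjusted p = 0.0869), and 2778, 0 and 4472 genes. Per3 was also lost there with no filter (limma adjusted p = 0.0650). Directions that turned were all of differences not called. With ethanol, over left-out libraries, Per1 ranged from -0.071 to 0.52 and Clock from -0.016 to 0.19. Between the ethanol-fed groups, over left-out libraries, Dbp ranged from -0.56 to 0.44, Tef from -0.40 to 0.0044, Nr1d2 from -0.23 to 0.16 and Cry1 from -0.072 to 0.12; without ethanol-fed library 1 and Mettl3 library 3, Dbp was at -0.15 and Nr1d2 at 0.063, and median-ratio scaling put Nr1d2 at 0.072. In Mettl3 against pair-fed libraries, median-ratio scaling put Clock at 0.087 and Ciart at 0.11, and over left-out libraries Ciart ranged from -0.26 to 0.071. The causes were not tested. With 3 libraries a group, precision is set by the spread between libraries.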
